A study of Rattus norvegicus with 36 samples.

Results

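The last dose step of a rat study of decabromodiphenylethane (DBDPE), from 97.1 to 970 mg/kg, was examined in liver. The samples were chosen by their dose labels: 6 samples given 970 mg/kg and 6 given 97.1 mg/kg, 12 of the 36 in the series, and all 31042 probe sets that are not array controls. DBDPE is a brominated flame retardant sold as a replacement for decabromodiphenyl ether. Male Harlan Sprague Dawley rats, 7 weeks of age when dosing began, received it by gavage in corn oil (5 ml/kg) on 5 days in a row. The left liver lobe was taken 1 day after the last dose. The animals of both groups shared strain, sex, vehicle and an NTP-2000 diet and carried no genetic change. The 6 samples at 9.71 mg/kg serve here as the dose below, and the 6 vehicle samples (corn oil alone) give the untreated level. Doses below 97.1 mg/kg and vehicle entered no estimate of the last step except where named. Expression was read on 3′ Affymetrix arrays as log2 signals, on which a difference of 1 is a doubling.

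The aryl hydrocarbon receptor (AhR) is a ligand-activated transcription factor. Once bound by a planar aromatic ligand it leaves its Hsp90 complex, pairs with Arnt and binds xenobiotic response elements, whose core reads GCGTG. Its best known liver targets are Cyp1a1, a cytochrome P450 that is almost silent in untreated liver, and Cyp1a2, a relative that hepatocytes express constitutively. Adult hepatocytes rarely divide. When they do, the genes of mitosis are switched on together late in the cycle, among them Ccnb1, which encodes cyclin B1, the partner of the kinase Cdk1.

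Over the last step, Cyp1a1 and Cyp1a2 were higher in all 6 samples at 970 mg/kg than in any sample at 97.1 mg/kg, and they were the genes of smallest p. No probe set passed the adjusted threshold of 0.05 in limma's fit to these 12 samples: 0 of 31042 were called (0%). At an unadjusted p under 0.05, 1188 probe sets differed (3.83%), 565 of them higher (1.82%) and 623 lower (2.01%) at 970 mg/kg. When all 36 samples shared 1 estimate of the spread, 2 probe sets were called (0.00644%), those of Cyp1a1 and Cyp1a2. The groups did not overlap for 21 probe sets that were higher (0.0677%) and 21 that were lower (0.0677%). The median of all differences was -0.0042, and 47.8% of probe sets were higher at 970 mg/kg.

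The 12 arrays were alike. Their pairwise correlations over probe sets ran from 0.994 to 0.996 and averaged 0.99483 within groups and 0.99481 between them. Array medians lay between 5.07 and 5.12. The 95% interval of the difference lay within ±1 for 99.7% of probe sets and within 1.5-fold for 98.3%. As a sign of RNA quality, the 3′ beta-actin control read above the 5′ control by 1.19 ± 0.08 (SD, n = 6) at 970 mg/kg and by 1.12 ± 0.05 (SD, n = 6) at 97.1 mg/kg. With this measure as a covariate the Cyp1a1 difference given next was 2.79 and the median of the mitosis list 0.38. Hepatocyte markers such as Apob and Serpina1 were high in both groups, and the median difference of the 9 measured markers was 0.0038, with 0 of 9 at an unadjusted p under 0.05. In whole liver, fewer cells of a type and less RNA per cell cannot be told apart.

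**Figure D1:**
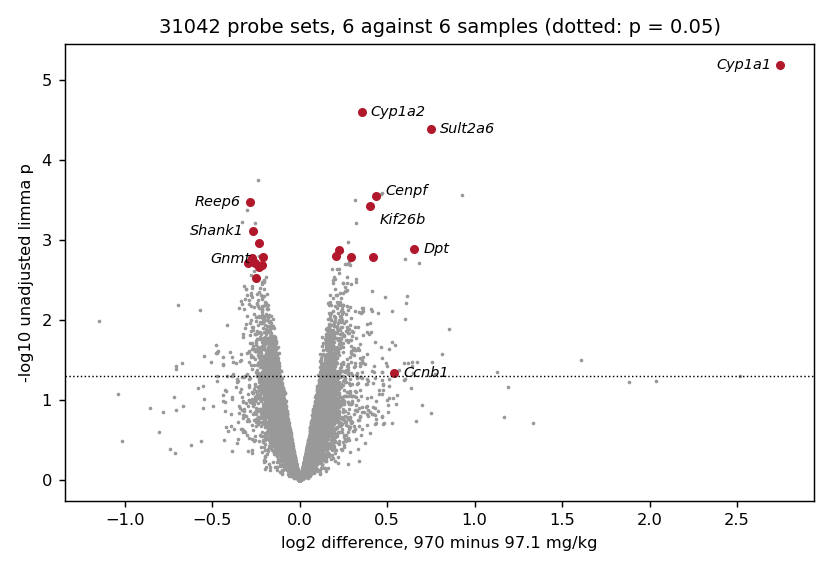
Each grey point is 1 of 31042 probe sets, placed by its log2 difference (970 minus 97.1 mg/kg) and the -log10 of its unadjusted limma p, with the genes named by rule in red and a dotted line at 0.05. Cyp1a1 stands at a difference of 2.75, while 9 probe sets in all lie above 1 and 3 below -1.

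Cyp1a1 read 6.66 in its lowest, 8.22 at the median and 9.26 in its highest sample at 97.1 mg/kg. At 970 mg/kg it read 10.02, 10.81 and 11.81. The groups did not overlap, and the mean was 8.06 ± 1.05 (SD, n = 6) at the lower and 10.81 ± 0.63 (SD, n = 6) at the higher dose. The difference was 2.75, with a 95% interval of 1.88 to 3.62, or 6.72-fold (3.68 to 12.3). Limma's adjusted p was 0.199 on the 12 samples and 4.37e-07 on all 36. The exact permutation test of this gene, two-sided, gave p = 0.00216, the smallest that the 924 splits of 12 samples allow, and 0.00325 after adjustment over the 3 marker genes tested. Any probe set without overlap reaches this p, so the 21 higher and 21 lower ones given above share it. The markers were chosen with earlier results of these data known, which the adjustment over 3 genes does not cover. At 9.71 mg/kg the level was 4.86 ± 0.17 (SD, n = 6), and the vehicle mean was 4.57. The spread between samples at 970 and 97.1 mg/kg was thus larger than at 9.71 mg/kg, where the gene lay close to its untreated level. The fit to all 36 samples pools these unlike spreads. Its adjusted p for Cyp1a1 therefore does not measure the spread of the groups compared.

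Cyp1a2 moved by a much smaller amount from a high level. It read 13.23, 13.30 and 13.49 in the lowest, median and highest sample at 97.1 mg/kg, and 13.58, 13.67 and 13.78 at 970 mg/kg. Again no sample overlapped. The difference was 0.35 (95% interval 0.23 to 0.48), a 1.28-fold higher signal (1.17 to 1.40), with a limma adjusted p of 0.393 on the 12 samples and 0.0260 on all 36. The exact permutation p was 0.00216 and 0.00325 after adjustment, with the same limits as for Cyp1a1. The untreated level was 12.81.

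The promoter of Cyp1a2 is shown because it is the second of the genes called with all 36 samples, and its window holds a TATA box. The 300 bases run from 250 before to 50 after the start in RefSeq's GRCr8 table, chr8:66978100-66978399 on the minus strand, and capitals mark the letters TATAAA.
Cyp1a2: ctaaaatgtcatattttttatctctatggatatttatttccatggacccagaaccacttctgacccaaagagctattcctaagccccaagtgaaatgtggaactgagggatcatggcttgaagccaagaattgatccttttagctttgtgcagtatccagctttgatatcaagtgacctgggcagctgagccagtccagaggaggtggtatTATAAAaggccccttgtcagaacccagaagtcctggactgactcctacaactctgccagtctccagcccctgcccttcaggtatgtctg
The TATAAA lies 39 bases before the start. These letters were found on 1 or the other strand in 14.3% of the 27457 promoters in the table. The response element core GCGTG was not found in this window on either strand. It was found in 4 of the 5 AhR target promoters in the table and in 31.1% of all promoters. Those 4 were Cyp1b1, Nqo1, Tiparp and Ahrr, and Cyp1a1 had no promoter in the table. None of those 4 genes reached an unadjusted p under 0.05 over the last step. Other pathway lists had shares on both sides of 31.1%, such as 73.3% (unfolded protein response) and 13.3% (acute phase). The core was thus not particular to AhR targets. A match describes letters and is no measured site, and elements that lie outside such a window are not seen.

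The step from 9.71 to 97.1 mg/kg gives a yardstick. Over it Cyp1a1 rose by 3.19 (95% interval 2.44 to 3.94, limma adjusted p = 0.00483), the only probe set called in that comparison (0.00322%), in which 1144 reached an unadjusted p under 0.05 (3.69%). Cyp1a2 differed by 0.38 (0.26 to 0.50, adjusted p = 0.0567). The last step minus the step before was -0.45 for Cyp1a1, with an interval of -1.73 to 0.84, and -0.02 for Cyp1a2, with an interval of -0.21 to 0.17. For Cyp1a1 this interval leaves room for a last step that is much smaller or somewhat larger than the step before. At 9.71 mg/kg Cyp1a1 lay below the array medians given above, and Cyp1a2 read near the bright end of the arrays. Differences at either end may read too small, which limits this comparison of steps and was not tested. Across all probe sets, 0 differed between the steps at the adjusted threshold (0%), and 1157 did at an unadjusted p under 0.05 (3.73%). Both steps share the 97.1 mg/kg samples, which the contrast allows for.

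Within a dose, samples high in Cyp1a1 tended to be high in Cyp1a2, though neither relation passed adjustment over the 6 computed. At 970 mg/kg Pearson's r was 0.849 (n = 6, exact permutation p = 0.0361, adjusted 0.108) and Spearman's rho 0.886 (exact p = 0.0333, adjusted 0.100). Without the 2 samples farthest from the median of Cyp1a1, r was 0.950. At 97.1 mg/kg r was 0.784 (n = 6, exact permutation p = 0.0361, adjusted 0.108) and rho 0.886 (exact p = 0.0333, adjusted 0.100). Without the 2 farthest samples r was 0.533, so this relation rests in part on them. Cyp1a1 and Ccnb1 gave r of -0.581 at 970 mg/kg (exact permutation p = 0.208, adjusted 0.417, rho -0.543, exact p = 0.297) and -0.027 at 97.1 mg/kg (exact p = 0.942, rho -0.200, exact p = 0.714). Without the 2 farthest samples the first of these was -0.0054. Cyp1a2 and Ccnb1 gave r of -0.258 at 970 mg/kg (exact permutation p = 0.603, rho -0.257) and 0.494 at 97.1 mg/kg (exact p = 0.372, rho 0.029). Without the 2 samples farthest from the median of Cyp1a2, r was -0.839 at 970 mg/kg and -0.325 at 97.1 mg/kg. The value at 97.1 mg/kg thus changed sign.

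**Figure D2:**
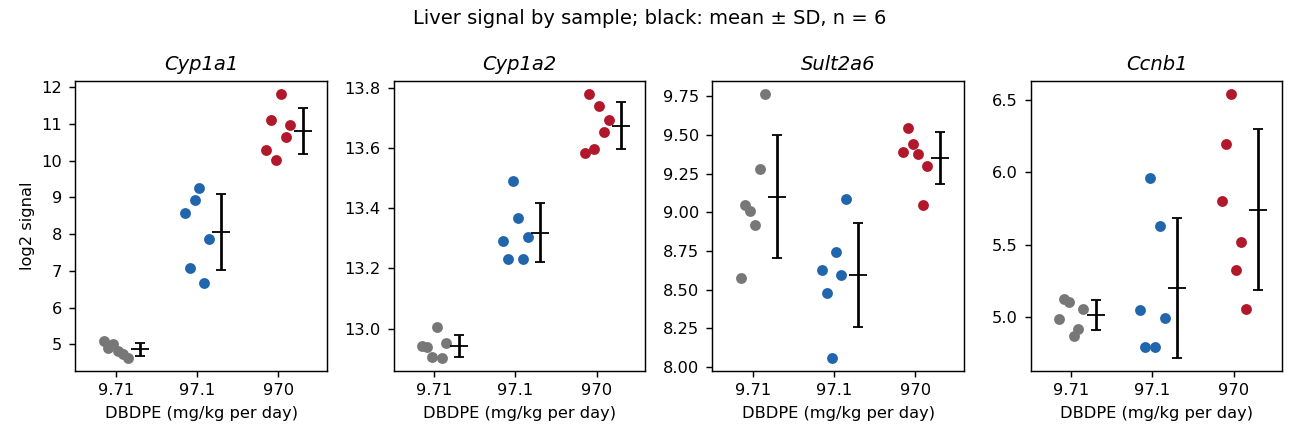
Points are the log2 signals of single samples of Cyp1a1, Cyp1a2, Sult2a6 and Ccnb1 at 9.71, 97.1 and 970 mg/kg (n = 6 each), with black marks for the mean and SD. Cyp1a1 and Cyp1a2 at 970 mg/kg lie above every sample at 97.1 mg/kg, Sult2a6 does so in 5 of 6 samples and Ccnb1 in 2 of 6.

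Of the 10 genes in the list of AhR targets 7 were measured, and 2 of 7 were higher at an unadjusted p under 0.05 against 1.82% of all probe sets. These 2 are the preselected markers Cyp1a1 and Cyp1a2, so the count adds nothing to their own results. The remaining 5 had differences between -0.03 and 0.53, and none of them reached that level. Cyp1b1, a P450 of mostly extrahepatic tissues, differed by -0.01 (95% interval -0.21 to 0.19), Aldh3a1, an aldehyde dehydrogenase, by 0.03 (-0.11 to 0.16), and Ahrr, which encodes the receptor's repressor, by -0.03 (-0.17 to 0.11). The signs of these 3 differences turned when single samples were left out. Aldh3a1 and Ahrr read between 3.14 and 3.63 in all 12 samples, below the array medians of 5.07 to 5.12, so a difference in them may go unseen. Tiparp, an ADP-ribosyltransferase that dampens AhR signalling, differed by 0.11 (-0.13 to 0.36).

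Nqo1, a quinone reductase that Nrf2 also controls, read 7.27, 7.46 and 9.53 in the lowest, median and highest sample at 97.1 mg/kg and 7.71, 8.06 and 9.75 at 970 mg/kg. Its difference of 0.53 had an interval of -0.30 to 1.35 (limma unadjusted p = 0.193). 1 sample in each group lay far above the rest, and without the high sample at 970 mg/kg the difference was 0.23. Without the high sample at 97.1 mg/kg it was 0.88. Of the AhR machinery, 1 of 5 measured genes reached an unadjusted p under 0.05, against 3.83% of all probe sets. This was Ahr itself, at 0.33 (0.01 to 0.65, limma adjusted p = 0.999), whose second probe set gave -0.06. That count was 0 without replicate 2, 4, 5 or 6 at either dose. The receptor's partner Arnt differed by 0.0032 (-0.17 to 0.17).

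Cytochrome P450s need electrons and heme. The 11 measured electron donors and heme synthesis enzymes of 12 listed had a median difference of -0.0073, with 5 of 11 higher at 970 mg/kg and 0 of 11 at an unadjusted p under 0.05. Cyb5a, cytochrome b5, differed by 0.08 (-0.02 to 0.19). Alad, the second enzyme of heme synthesis, was lower by a small amount in every sample at 970 mg/kg than at 97.1 mg/kg, with a difference of -0.08 (-0.18 to 0.02, unadjusted p = 0.102).

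The genes of mitosis were higher at 970 mg/kg as a list, with wide spread between samples. Of 32 listed genes 30 were measured and all 30 had a difference above 0, against 47.8% of all probe sets. Their median difference was 0.34, and 13 of 30 were higher at an unadjusted p under 0.05, against 1.82% of all probe sets, with 0 of 30 at the adjusted threshold. In none of the 30 did the groups fail to overlap. Mitotic genes are regulated together, so the 30 are not independent of each other. The list was also chosen with earlier results of these data known, so its counts are no fresh test.

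Ccnb1 read 4.79, 5.02 and 5.96 in the lowest, median and highest sample at 97.1 mg/kg and 5.05, 5.66 and 6.54 at 970 mg/kg. The groups overlapped, with 2 of 6 samples at 970 mg/kg above every sample at 97.1 mg/kg. The difference was 0.54 (95% interval 0.01 to 1.07, limma unadjusted p = 0.0462, adjusted p = 0.999), and the exact permutation p was 0.106. A second probe set of the gene differed by 0.15 (unadjusted p = 0.571).

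Cenpf, a kinetochore protein, had the smallest p of the mitotic genes. It read 4.58, 4.68 and 4.88 at 97.1 mg/kg and 4.80, 5.19 and 5.42 at 970 mg/kg, and 5 of 6 samples at the higher dose lay above all at the lower. Its difference was 0.44 (0.24 to 0.64, unadjusted p = 0.000283). Aurkb, the kinase of the chromosomal passenger complex, read 3.82, 3.99 and 4.56 and then 4.18, 4.65 and 5.26, a difference of 0.53 (0.16 to 0.90). Its partner in that complex, Cdca8, differed by 0.25 (0.02 to 0.47).

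Cyclins and their kinase gave larger differences with wider intervals. Ccnb2, cyclin B2, read 5.85, 6.38 and 7.05 at 97.1 mg/kg and 6.11, 7.08 and 8.07 at 970 mg/kg, a difference of 0.64 (0.04 to 1.24). Ccna2, cyclin A2, differed by 0.65 (0.01 to 1.28), and Cdk1 by 0.57 (0.02 to 1.11). The checkpoint kinase Bub1 differed by 0.60 (0.05 to 1.14), and Cdc20, the activator of the anaphase-promoting complex, by 0.50 (0.03 to 0.96). The other 4 probe sets of Cdc20 gave -0.11 to 0.28, and the mean of all its probe sets 0.16. That complex's conjugating enzyme Ube2c differed by 0.47 (0.01 to 0.93), the motor Kif2c by 0.37 (0.03 to 0.71, with a second probe set at 0.08) and the proliferation antigen Mki67 by 0.43 (0.01 to 0.84). Not all members were at an unadjusted p under 0.05: Top2a, topoisomerase II alpha, differed by 0.29 (-0.01 to 0.58) and Foxm1, a transcription factor of these genes, by 0.05 (-0.09 to 0.19).

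**Figure D3:**
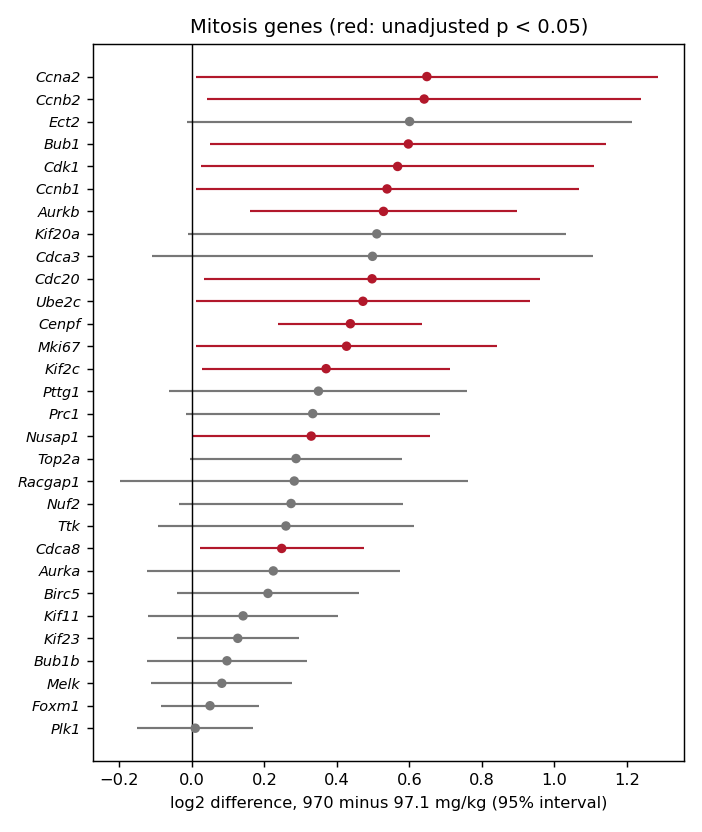
Points are the log2 differences (970 minus 97.1 mg/kg) of the 30 measured mitotic genes and lines their 95% limma intervals, with the 13 genes at an unadjusted p under 0.05 in red. All 30 points lie above 0, from 0.01 to 0.65, and none passed the adjusted threshold.

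Averaged over its genes, the mitosis list stood at 0.35 ± 0.37 (SD, n = 6) at 970 mg/kg and -0.0035 ± 0.28 (SD, n = 6) at 97.1 mg/kg, relative to the mean of all 36 samples. The samples at 970 mg/kg ran from -0.14 to 0.90, with replicate 3 highest and replicate 6 lowest. Those at 97.1 mg/kg ran from -0.23 to 0.50, also with a replicate 3 highest, and the groups overlapped. Group means were -0.01 in vehicle and between -0.15 and -0.09 at the 3 lowest doses. The highest value of the 12 samples fell in replicate 3 at 970 mg/kg for 23 of the 30 genes.

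The count of 13 genes turned on single samples. It was 2 without replicate 1, 2 or 3 at 970 mg/kg and 10 without replicate 5 there, and it was 19 without replicate 4 and 22 without replicate 6. On the lower side it was 3 without replicate 1, 4 or 6 at 97.1 mg/kg, 4 without replicate 2, 12 without replicate 5 and 22 without replicate 3. The median difference stayed between 0.23 and 0.44, and at least 29 of 30 genes stayed above 0, in all 12 of these fits. In replicate 3 at 970 mg/kg the neutrophil list also stood highest, at 0.63, against -0.23 to -0.06 in the other samples of its group, while at 97.1 mg/kg replicate 3 stood at 0.0044 within a range of -0.07 to 0.20. The erythroid list was highest in replicate 3 at both doses, at 0.46 and 0.38, and nearly as high, at 0.45, in replicate 6 at 970 mg/kg, where the mitosis list was lowest. The part of these cells in the result was not tested.

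Genes of the earlier cell cycle were described in the same way. Of 25 measured genes of G1 and DNA replication, 19 were higher at 970 mg/kg, with a median of 0.04. An unadjusted p under 0.05 was reached by 1 of 25, against 3.83% of all probe sets. That gene was Rfc4, a clamp loader subunit, at 0.17 (0.01 to 0.33). The count was 5 without replicate 6 at 970 mg/kg and 3 without replicate 3 at 97.1 mg/kg, and 0 or 1 without any of the other samples. Fen1, the flap endonuclease, differed by 0.12 (-0.02 to 0.25). Among 9 measured p53 targets the median was 0.06, and 0 of 9 reached an unadjusted p under 0.05. The difference between the mitosis and replication lists was not tested.

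Promoters of 4 mitotic genes are shown because such genes are known to carry a cell cycle homology region (CHR, TTTGAA) downstream of CCAAT boxes. All are 300 bases from RefSeq's GRCr8 table, as above, and capitals mark TTTGAA and CCAAT on either strand, ATTGG being CCAAT on the opposite strand. They are Ccnb1 (chr2:33655176-33655475, minus strand), Ccnb2 (chr8:79981609-79981908, minus), Cdk1 (chr20:19265043-19265342, plus) and Cenpf (chr13:103760837-103761136, minus).
Ccnb1: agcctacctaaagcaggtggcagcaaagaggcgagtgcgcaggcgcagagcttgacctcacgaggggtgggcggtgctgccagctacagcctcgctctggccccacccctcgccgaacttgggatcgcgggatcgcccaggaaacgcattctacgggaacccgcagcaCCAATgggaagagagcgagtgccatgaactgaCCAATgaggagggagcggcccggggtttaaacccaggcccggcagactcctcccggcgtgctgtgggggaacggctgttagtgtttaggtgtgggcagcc
Ccnb2: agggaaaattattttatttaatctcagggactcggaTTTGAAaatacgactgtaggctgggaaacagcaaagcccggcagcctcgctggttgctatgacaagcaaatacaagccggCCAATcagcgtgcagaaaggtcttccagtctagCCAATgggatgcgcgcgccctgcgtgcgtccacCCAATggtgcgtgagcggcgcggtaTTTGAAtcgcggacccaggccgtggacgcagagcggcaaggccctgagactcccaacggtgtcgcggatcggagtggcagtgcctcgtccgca
Cdk1: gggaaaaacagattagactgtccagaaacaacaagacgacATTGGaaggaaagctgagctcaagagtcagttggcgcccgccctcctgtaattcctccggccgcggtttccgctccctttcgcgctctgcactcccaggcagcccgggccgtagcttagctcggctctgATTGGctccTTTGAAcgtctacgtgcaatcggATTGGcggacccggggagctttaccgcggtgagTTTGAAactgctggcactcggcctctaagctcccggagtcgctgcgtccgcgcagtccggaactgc
Cenpf: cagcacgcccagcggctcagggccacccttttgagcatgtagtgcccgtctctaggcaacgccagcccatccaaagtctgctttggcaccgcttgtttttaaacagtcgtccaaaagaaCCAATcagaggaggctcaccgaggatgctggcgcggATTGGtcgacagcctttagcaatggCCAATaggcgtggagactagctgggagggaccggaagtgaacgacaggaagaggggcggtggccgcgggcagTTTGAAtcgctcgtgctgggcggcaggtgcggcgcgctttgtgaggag
TTTGAA was found on either strand in 17 of the 25 mitosis promoters in the table (68.0%), against 18.1% of all 27457 promoters and 1 of 21 G1 and replication promoters (4.76%). CCAAT was found in 19 of 25 (76.0%) against 37.7% of all. In the other pathway lists the CCAAT share ran from 13.3% (Nrf2 targets) to 86.7% (sterol synthesis), so it was not particular to mitosis. Ccnb1 held CCAAT 82 and 50 bases before the start and no TTTGAA in this window, whereas Ccnb2 and Cdk1 held both. The 17 genes with TTTGAA had a median difference of 0.33 and the 8 without it 0.43.

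The 10 genes of smallest p in each direction, among them Cyp1a1, Cyp1a2 and the mitotic gene Cenpf, were past no adjusted threshold on the 12 samples. Sult2a6, a bile acid and steroid sulfotransferase, ranked next after Cyp1a1 and Cyp1a2. It read 8.06, 8.61 and 9.09 at 97.1 mg/kg and 9.05, 9.38 and 9.55 at 970 mg/kg, and 5 of 6 samples at the higher dose lay above all at the lower. Its difference was 0.75 (0.47 to 1.03, limma adjusted p = 0.420). Its mean at 9.71 mg/kg was 9.10 and in vehicle 8.97, so the 97.1 mg/kg samples were the low ones.

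That pattern recurred. The mean at 97.1 mg/kg was the highest or lowest of all 6 groups for 10 of these 20 genes, and the mean at 9.71 mg/kg lay between the other 2 doses for 16. The mean at 970 mg/kg was the highest or lowest for 19. The genes were chosen for the difference between these groups, which puts their means apart. Among the higher genes, Kif26b, a kinesin family member, differed by 0.40 (0.21 to 0.59) in 1 of 4 probe sets, the other 3 giving 0.03 to 0.10. Dpt, the matrix protein dermatopontin, differed by 0.65 (0.30 to 1.01) and by 0.68 in its second probe set. Tusc3, an oligosaccharyltransferase subunit, Styxl2, Zfp182, a zinc finger protein, and Slc35a5, a nucleotide sugar transporter family member, had differences of 0.21, 0.22, 0.29 and 0.42.

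Among the lower genes, Gnmt, the glycine N-methyltransferase that buffers S-adenosylmethionine, read 11.81, 11.90 and 11.96 at 97.1 mg/kg and 11.57, 11.63 and 11.86 at 970 mg/kg, a difference of -0.23 (-0.36 to -0.11). Reep6, an endoplasmic reticulum shaping protein, differed by -0.29 (-0.42 to -0.15). Shank1, Eri2, Gh1 and Usp19 were lower in all 6 samples at 970 mg/kg than in any at 97.1 mg/kg, with differences of -0.27, -0.27, -0.25 and -0.22. Hip1, Lmo7, Narf and Utp15 differed by -0.21, -0.30, -0.23 and -0.25. Most of these lower genes with further probe sets gave values nearer to 0 there: -0.03 and -0.08 for Shank1, 0.02 for Usp19, -0.14 for Eri2, -0.14 for Utp15, -0.02 for Narf, -0.17 for Reep6, -0.11 to 0.02 for the 3 of Lmo7 and -0.16 to 0.12 for the 4 of Hip1. The step difference was of smallest p for Sult2a6 (1.25, 95% interval 0.67 to 1.84), Shank1 (-0.45, -0.67 to -0.24) and Usp19 (-0.43, -0.65 to -0.22), none past the adjusted threshold. For Shank1 and Usp19 these values rest on 1 of several probe sets.

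Genes of lipid synthesis were on the lower side at 970 mg/kg. In the sterol synthesis list 17 of 19 measured genes had a difference below 0, with a median of -0.18, and 3 of 19 were lower at an unadjusted p under 0.05 against 2.01% of all probe sets. Msmo1, the sterol C4-methyl oxidase, read 11.92, 12.13 and 12.60 at 97.1 mg/kg and 11.23, 11.86 and 12.21 at 970 mg/kg, a difference of -0.39 (-0.73 to -0.05). Mvd, the mevalonate diphosphate decarboxylase, differed by -0.38 (-0.73 to -0.04), and Fdft1, squalene synthase, by -0.24 (-0.44 to -0.03). The list stood at 0.14 ± 0.20 (SD, n = 6) at 97.1 mg/kg, -0.05 ± 0.27 (SD, n = 6) at 970 mg/kg and, in the vehicle samples, -0.06 ± 0.25 (SD, n = 6), so the groups overlapped and the higher dose lay near the untreated level. The count of 3 was 0 without replicate 1 or 5 at 970 mg/kg or replicate 4 at 97.1 mg/kg, and 9 without replicate 4 at 970 mg/kg. It was 1 without replicate 2, 5 without replicate 3 and 6 without replicate 6 at 970 mg/kg, and 5 without replicate 2, 6 without replicate 6 and 2 without replicate 3 or 5 at 97.1 mg/kg.

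Fatty acid synthesis gave 17 of 19 genes below 0, a median of -0.09 and 3 of 19 lower at an unadjusted p under 0.05, against 2.01% of all probe sets. Fasn, fatty acid synthase, differed by -0.48 (-0.89 to -0.07), with a second probe set at -0.47. Acly, ATP citrate lyase, differed by -0.38 (-0.76 to -0.0043), and Pklr, liver pyruvate kinase, by -0.23 (-0.43 to -0.02). The list stood at 0.09 ± 0.11 (SD, n = 6) at 97.1 mg/kg, -0.04 ± 0.23 (SD, n = 6) at 970 mg/kg and, in the vehicle samples, 0.09 ± 0.24 (SD, n = 6), so the lower dose lay near the untreated level and the groups overlapped. The count ran from 0 to 4 as single samples were left out, and was 0 without replicate 1 or 2 at 970 mg/kg or replicate 3 at 97.1 mg/kg. It was 1 without replicate 5 at 970 mg/kg. Among 24 measured PPARalpha targets 19 were below 0, with a median of -0.06 and 0 at an unadjusted p under 0.05. The fasting hormone gene Fgf21 had the largest difference of that list, -1.04, with an interval of -2.23 to 0.16.

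Stress lists showed small shifts. The heat shock and unfolded protein response lists had their highest group mean at 97.1 mg/kg. All 10 measured heat shock genes of 13 listed had a difference below 0, while 47.8% of all probe sets were above 0. The list's median was -0.14, with 0 of 10 at an unadjusted p under 0.05. Hsph1, the large cochaperone, differed by -0.24 (-0.51 to 0.03), Chordc1, an Hsp90 cochaperone, by -0.21 (-0.43 to 0.01), and Stip1, which links Hsp70 and Hsp90, by -0.18 (-0.38 to 0.02). The count of 0 was 3 without replicate 4 and 2 without replicate 3 at 970 mg/kg. From 9.71 to 97.1 mg/kg the same 10 genes had a median of 0.13, with 10 above 0. Because both steps use the 97.1 mg/kg samples, the opposite signs are not independent. The list stood at -0.05 ± 0.11 (SD, n = 6) at 970 mg/kg, 0.08 ± 0.10 (SD, n = 6) at 97.1 mg/kg and, in the vehicle samples, -0.03 ± 0.13 (SD, n = 6). The promoter of Hsph1, whose difference was the most negative of the list, is shown with the heat shock element GAANNTTC in capitals (GRCr8, chr12:10427118-10427417, plus strand).
Hsph1: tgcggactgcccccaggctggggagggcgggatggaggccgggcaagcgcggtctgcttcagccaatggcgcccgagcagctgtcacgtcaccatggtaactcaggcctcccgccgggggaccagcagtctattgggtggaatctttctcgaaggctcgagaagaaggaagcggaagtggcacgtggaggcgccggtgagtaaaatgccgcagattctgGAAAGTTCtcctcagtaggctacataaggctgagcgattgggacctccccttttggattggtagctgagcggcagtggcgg
GAANNTTC, which reads the same on both strands, was found in 9 of the 10 heat shock promoters (90.0%) and in 8.34% of all.

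In the unfolded protein response list 14 of 16 genes were below 0, with a median of -0.09 and 0 of 16 at an unadjusted p under 0.05. Trib3, a stress-induced pseudokinase, differed by -0.67 (-1.52 to 0.19), Asns, asparagine synthetase, by -0.49 (-1.13 to 0.14), and Sel1l, a degradation adaptor, by -0.13 (-0.27 to 0.01). Without replicate 3 at 97.1 mg/kg Trib3 differed by -0.37, and without replicate 2 at 970 mg/kg Asns differed by -0.32. The count of 0 was 2 without replicate 1 at 97.1 mg/kg. The unfolded protein response list stood at 0.10 ± 0.21 (SD, n = 6) at 97.1 mg/kg, the highest of all groups. At 970 mg/kg it stood at -0.07 ± 0.13 (SD, n = 6), the lowest, and in vehicle at -0.02 ± 0.23 (SD, n = 6). Interferon response genes went the other way, with 22 of 24 above 0, a median of 0.20 and 0 of 24 at an unadjusted p under 0.05. Psmb8, an immunoproteasome subunit, differed by 0.39 (-0.11 to 0.88) and Herc6, a ubiquitin ligase, by 0.24 (-0.05 to 0.53). That count was 6 without replicate 5 and 2 without replicate 2 at 97.1 mg/kg, and the median was 0.10 without replicate 1 or 6 at that dose. The interferon list stood at 0.10 ± 0.21 (SD, n = 6) at 970 mg/kg and -0.08 ± 0.42 (SD, n = 6) at 97.1 mg/kg. In the vehicle samples it stood at -0.24 ± 0.39 (SD, n = 6), so the lower dose lay between vehicle and the higher dose, and the groups overlapped. Over the step before, 2 of 24 interferon genes had been above 0, with a median of -0.20. The steps share the 97.1 mg/kg samples, so these opposite signs are not independent.

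**Figure D4:**
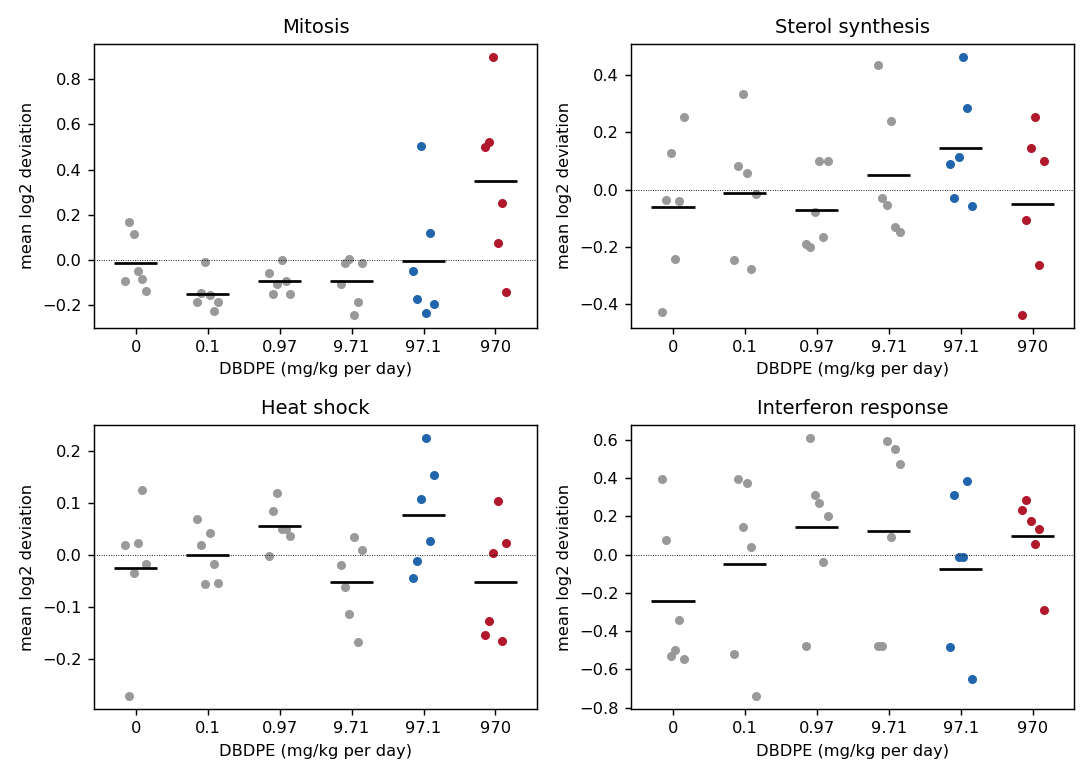
Points are single samples, and bars the means, of the mean log2 level of 4 gene lists relative to all 36 samples, by dose in mg/kg (0 is vehicle, n = 6 per dose). Mitosis samples reach 0.90 at 970 mg/kg and overlap those at 97.1 mg/kg, and in the other 3 lists the samples at 970 and 97.1 mg/kg overlap as well.

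Targets of other receptors had list medians near 0. Of 16 measured CAR and PXR targets 10 were above 0, with a median of 0.02. 3 of 16 were higher at an unadjusted p under 0.05, against 1.82% of all probe sets, and 2 or 3 with any single sample left out. They were Abcc3, an export pump of conjugates, at 0.29 (0.11 to 0.47), Ugt2b1, a glucuronosyltransferase, at 0.22 (0.07 to 0.36), and Ces2c, a carboxylesterase, at 0.20 (0.02 to 0.38). At that level 1 of 16 was lower, against 2.01% of all probe sets, and 0 or 1 with any single sample left out. The 17 measured Nrf2 targets had a median of -0.02 with 7 above 0, and the 11 thyroid hormone genes a median of -0.04, and neither list had a member at an unadjusted p under 0.05. Of 18 bile acid genes 9 were above 0, and 1, Nr1h4, the bile acid receptor FXR, was lower at an unadjusted p under 0.05, with a difference of -0.26 (-0.44 to -0.08).

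Cish, a STAT5 target induced by growth hormone, differed by 0.60 (-0.02 to 1.21) among 12 genes of growth hormone action with a median of 0.05. The 18 acute phase genes had a median of 0.01. Of 17 fasting and glucocorticoid genes, 1 was higher and 1 lower at an unadjusted p under 0.05. They were Ppargc1a, a coactivator of gluconeogenesis, at 0.32 (0.03 to 0.61), and Depp1, a FOXO target, at -0.47 (-0.87 to -0.07). Of 16 clock genes 7 were above 0, with a median of -0.0033 and 1 lower at an unadjusted p under 0.05. Over all probe sets 1.82% were higher and 2.01% lower at that level.

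**Figure D5:**
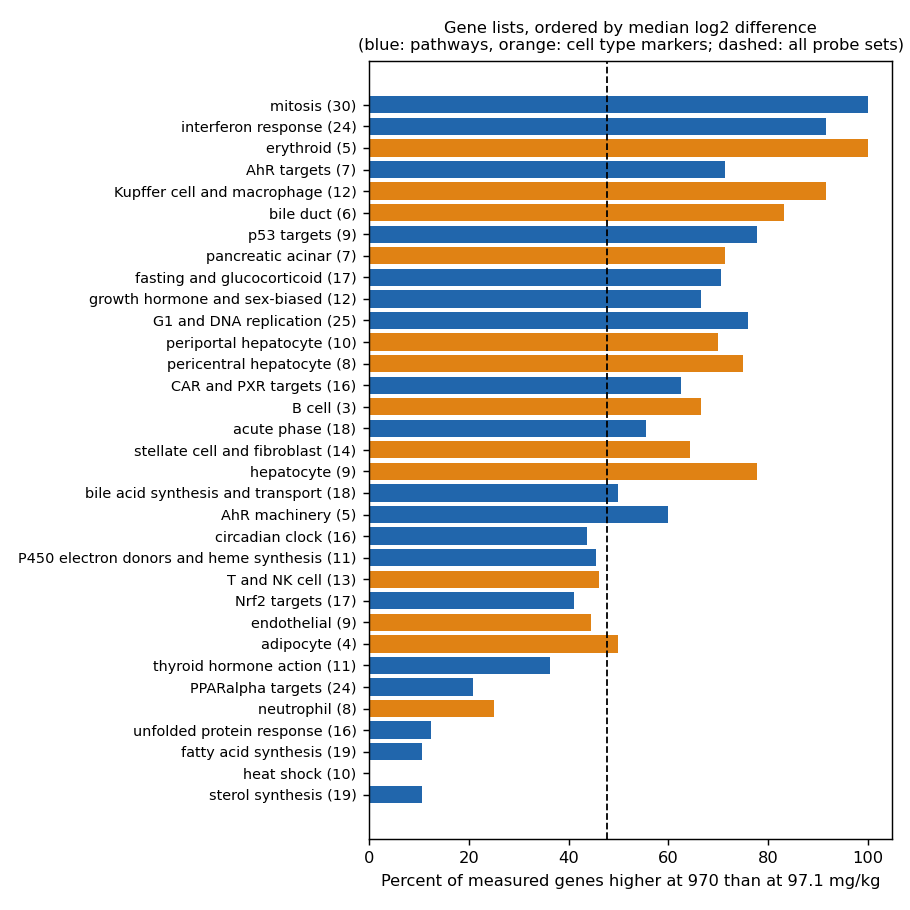
Bars give, for each pathway list (blue) and cell type list (orange), the percent of its measured genes with a higher mean at 970 than at 97.1 mg/kg, ordered by the median log2 difference, with the number measured in brackets and a dashed line at the 47.8% of all probe sets. Mitosis reaches all of its 30 genes and heat shock none of its 10.

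The other cell type lists had median differences between -0.06 and 0.15. Of 8 measured pericentral hepatocyte markers 3 were higher at an unadjusted p under 0.05, against 1.82% of all probe sets. They were Cyp1a2, itself a preselected marker of the comparison, the ornithine aminotransferase Oat at 0.31 (0.05 to 0.57) and the glutamate transporter Slc1a2 at 0.24 (0.01 to 0.46). A second probe set of Slc1a2 gave 0.0042 (unadjusted p = 0.955). That count was 1 without replicate 1 or 5 at 970 mg/kg or replicate 4 at 97.1 mg/kg. It was 2 without replicate 2 or 4 at 970 mg/kg or replicate 3 or 6 at 97.1 mg/kg. The list's median was 0.03, and that of 10 periportal markers was 0.04.

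Of 14 stellate cell and fibroblast markers 1, the collagen-binding proteoglycan Lum, was higher at an unadjusted p under 0.05, at 0.60 (0.17 to 1.03), with a list median of 0.01. The list stood between -0.04 and 0.16 at 970 mg/kg and between -0.09 and 0.09 at 97.1 mg/kg. Of 13 T and NK cell markers 1 was lower at that level, Cd3d, a subunit of the T cell receptor complex, at -0.27 (-0.47 to -0.07). Of 4 adipocyte markers 1 was lower at that level, the fatty acid carrier Fabp4, at -0.44 (-0.85 to -0.03). The shares over all probe sets at that level were 1.82% higher and 2.01% lower. Signals of these lymphocyte and adipocyte markers were mostly low. Only 4 of 13 T and NK cell markers and 0 of 4 adipocyte markers had a mean above the median of all probe sets. Macrophage markers were above 0 in 11 of 12, with a median of 0.09, and erythroid markers in 5 of 5, with a median of 0.15. With single samples left out, the macrophage median ran from 0.03 (without replicate 6 at 97.1 mg/kg) to 0.17 (without replicate 6 at 970 mg/kg), and 3 members were higher at an unadjusted p under 0.05 without replicate 5 at 97.1 mg/kg. The erythroid median ran from 0.05 (without replicate 5 at 97.1 mg/kg) to 0.28 (without replicate 3 at that dose), and it was 0.06 without replicate 3 at 970 mg/kg. The erythroid genes included Alas2, the erythroid heme synthase, at 0.31 (-0.05 to 0.67) and Hbb at 0.20 (-0.11 to 0.51). Neutrophil (8 genes), endothelial (9), bile duct (6), B cell (3) and pancreatic acinar (7) markers had medians of -0.06, -0.03, 0.08, 0.02 and 0.06, with 0 members at an unadjusted p under 0.05 in each. Without replicate 3 at 970 mg/kg, 2 of 8 neutrophil markers were lower at that level, with a median of -0.08. The bile duct and acinar counts were at most 1 with any single sample left out.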

How the data were processed

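Liver RNA of 36 samples, 6 per dose, was measured on Affymetrix 3′ IVT arrays. The authors deposited a log2 signal for each probe set, made with RMA and the affy package, per the submitters' processing notes, which give no versions. RMA corrects background, equalises distributions between arrays and summarises probes, so it can damp shifts shared by most genes and changes of bright probes. 57 controls were left out and no filter on low values was applied. Of the 31042 probe sets, 20826 name 1 gene in the platform annotation, 436 several and 9780 none, and names were set against the rat RefSeq table (20758 matched).

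The 12 samples at 970 and 97.1 mg/kg were compared with limma 3.58.1 in R 4.3.3 (lmFit, eBayes), two-sided, with Benjamini-Hochberg adjustment over all probe sets and a threshold of 0.05, the 5% of the series' design. The step from 9.71 to 97.1 mg/kg was fitted in the same way, and the difference of the steps on 18 samples. The method was checked on simulated data of this size. Markers also had an exact permutation test. The labels only number the samples within a group, and where these are not separate animals the p-values measure technical spread. The number of arrays limits the precision.

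The comparison, its members and the gene lists (20 pathway and 13 cell type lists, 475 genes, 415 measured) were chosen with earlier results of these data known. A list gene with several probe sets was represented by the one with the highest mean over the 12 samples. Genes were named by rule: the 3 markers, all genes past the threshold, the 10 of smallest p per direction, 3 of smallest p per list (any in the mitosis, AhR and P450 donor lists) and 3 of smallest p for the step difference. The alternatives were the samples in the fit, the replicate block, array centring and weights, an intensity trend, unmoderated variances, low-level filter, mean of a gene's probe sets, other thresholds and each sample left out. The list counts without single samples were added after seeing the data.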

Additional observations from a re-analysis of the deposited data

Results flagged for a closer look

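13 values lay apart from the rest of their own group by Dixon's criterion at 95%, out of 146 gene and group pairs examined, where chance alone marks about 1 in 20. Nqo1 had such a value in both groups: 9.53 in replicate 5 at 97.1 mg/kg, with the next sample at 7.51, and 9.75 in replicate 6 at 970 mg/kg, with the next at 8.32.

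Replicate 3 at 97.1 mg/kg stood apart for 4 genes: the mitotic genes Cdk1, at 7.04, and Bub1, at 5.06, were high, while Styxl2, at 4.13, and Tusc3, at 6.24, were low. Replicate 6 at 97.1 mg/kg was high for Cyp1b1, at 5.35, and Ahrr, at 3.63. Aldh3a1 was low, at 3.14, in replicate 2 at that dose.

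At 970 mg/kg, Gnmt was high in replicate 6, at 11.86. Ugt2b1 was high in replicate 1, at 12.38, and Depp1 in replicate 3, at 9.45. Cd3d was low in replicate 5, at 3.54.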

How the results depend on the processing

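The count of probe sets past the threshold for 970 against 97.1 mg/kg was 0 on the 12 samples and 0 with each sample left out. It was 2 with all 36 samples in one fit, where Cyp1a1 (2.75, adjusted p = 4.37e-07) and Cyp1a2 (0.35, adjusted p = 0.0260) passed. For Cyp1a1 that fit pools the smaller spread at 9.71 mg/kg with the larger spread at 97.1 and 970 mg/kg. The count was 1 with an intensity trend and robust prior, where Cyp1a2 passed (0.35, adjusted p = 0.00640). With each sample left out, the Cyp1a1 difference ran from 2.47 to 2.99, that of Cyp1a2 from 0.33 to 0.39 and that of Ccnb1 from 0.38 to 0.69. For 97.1 against 9.71 mg/kg the count of 1 was 4 at an adjusted p of 0.1, 2 with all 36 samples, 4 with array weights, 0 without moderated variances, 2 among probe sets at or above the median level and 3 with probe sets averaged by gene. It lay between 1 and 3 with each sample left out, with 3 without replicate 1 at 97.1 mg/kg. Cyp1b1, at -0.014, was 0.015 with array weights and ran from -0.088 to 0.038 with single samples left out. Aldh3a1, at 0.027, ran from -0.010 to 0.062 and Ahrr, at -0.029, from -0.062 to 0.011. The cause of these changes was not tested.

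The labels number the replicates alike in both groups. For the 6 pairs of same-numbered samples the correlation of deviations averaged 0.035 (-0.01 to 0.10), with 0 pairs over 0.1 and 1 of 6 samples closest to its own number, so the numbers were not taken as pairing. With the replicate number as a block the count was 0, and the Cyp1a1 difference was 2.75 (adjusted p = 0.275).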

Other observations

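Across all probe sets, 12 differed by more than 1 on the log2 scale between 970 and 97.1 mg/kg, 9 higher and 3 lower. Besides Cyp1a1 and Fgf21, some of these genes belong to no list, and they are named here after their values were seen. Egr1, an immediate early transcription factor, differed by 1.19 (limma unadjusted p = 0.0677), from a mean of 8.34 to 9.53. Ephx2, soluble epoxide hydrolase, differed by 1.12 (unadjusted p = 0.0448), from 5.87 to 7.00. Nfe2, a transcription factor of blood cells, differed by -1.15 (unadjusted p = 0.0104), from 7.26 to 6.11. None of them passed the adjusted threshold.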
